A study of Mus musculus with 11 samples.

Results

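Bcl6, Bcor and Sirt1 encode a transcriptional repressor and a pair of its corepressors. They were taken as all probes that the platform annotation of the Illumina bead array assigns to these symbols, which gave 3 genes of 19057 and 5 probes of 45281. The set was chosen by the measured stage difference of Bcl6 on these same arrays, its higher signal at E16. Their levels by stage are therefore given as a description, with no test.

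The RNA came from Tbr2 mutant intermediate progenitors (IPs), the basal progenitors of the embryonic mouse cortex, purified by fluorescence-activated sorting of EGFP-labeled cells. Both groups carried the Tbr2-EGFP reporter and had lost Tbr2 through the conditional Tbr2 fl/fl allele, and they differed in embryonic stage (E13, 5 samples; E16, 6 samples). The methods derive cortical Tbr2 knockout mice with Emx1-Cre, a driver active in the dorsal telencephalon. The sources used here do not say whether that driver produced the sorted samples. The methods give 3 litters, which the labels do not assign to samples, so littermates may share a group and the spread between arrays may understate that between litters. EGFP can persist for a time in the neurons born from labeled progenitors. Eomes, the gene that encodes TBR2, read 2344 to 2728 in normalized signal at E13 and 1049 to 2702 at E16. The sources used here do not say whether its probe lies in the deleted part, so it does not check the deletion. Control arrays of the study were not analysed here, so mutant and control are not compared. Arrays are named by the number in their signal column, and these numbers carry no order.

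BCL6 is a BTB-zinc finger protein that binds DNA through its zinc fingers and silences genes by recruiting corepressors to its BTB domain. BCOR is such a corepressor and also the core of a non-canonical Polycomb repressive complex. SIRT1 is an NAD-dependent deacetylase. In the mouse cortex BCL6 is known to promote the step from progenitor to neuron, with SIRT1, by silencing the Notch effector gene Hes5 and genes of other self-renewal pathways. In B cells BCL6 is known to bind its own promoter, at sites that share the core of STAT sites.

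The bases before the start sites of Bcl6 are shown because they hold letter matches to that core. RefSeq promoter windows of GRCm38.p6 ran from 250 bases before each annotated start to 50 bases after it, and Bcl6 had 2 of them, both on the minus strand of chromosome 16. The 250 bases before each start are printed 5′ to 3′, with capitals marking every match to TTCNNNGAA, the shared core, on either strand. This core contains the more restricted BCL6 motif TTCCTNGAA, so matches to the latter are counted in both.
Bcl6 window 1, chr16:23988853-23989102: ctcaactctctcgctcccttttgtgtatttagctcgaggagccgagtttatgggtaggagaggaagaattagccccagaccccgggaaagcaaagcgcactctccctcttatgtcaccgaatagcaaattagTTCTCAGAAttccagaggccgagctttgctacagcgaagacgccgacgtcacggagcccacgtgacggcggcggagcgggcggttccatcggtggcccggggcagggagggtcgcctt
Bcl6 window 2, chr16:23981284-23981533: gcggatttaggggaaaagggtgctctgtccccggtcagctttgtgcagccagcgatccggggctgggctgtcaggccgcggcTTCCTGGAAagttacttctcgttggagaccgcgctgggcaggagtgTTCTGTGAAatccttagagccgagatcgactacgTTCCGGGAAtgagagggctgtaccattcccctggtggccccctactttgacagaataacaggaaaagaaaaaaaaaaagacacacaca

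Window 2 held 3 matches, which began 168, 122 and 88 bases before the start site. The outermost, TTCCTGGAA, also matched TTCCTNGAA. Window 1 held 1 match, TTCTCAGAA, which began 118 bases before its start. Of 32851 RefSeq windows of 300 bases, 8.3% held TTCNNNGAA, 1.59% held TTCCTNGAA, and 11 windows, or 0.0335%, held at least 3 matches to TTCNNNGAA. The cut-off of 3 was taken from Bcl6 window 2 itself, so this last share is a description only. Both windows of Bcor, which overlap, held the same single match to TTCNNNGAA, and the 1 window of Sirt1 held none. A match describes the letters of the window and is not a measurement of binding.

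Each array detected 19757 to 20854 probes at a detection p under 0.05, and 16411 probes were detected on all 11 arrays. The median background-subtracted signal of those probes ran from 181 to 422, and pairs of arrays correlated at 0.931 to 0.985. After quantile normalization, 1848 of the 16411 probes (11.3%) passed limma's test between E16 and E13, with an adjusted p below 0.05 and more than 1.5-fold change, 848 higher (5.17%) and 1000 lower at E16 (6.09%). The median log2 difference was 0.01. Summed background-subtracted signals of marker lists, which are not normalized and follow the brightest genes, overlapped between stages for cortical neurons (34655 to 52259 at E13, 28508 to 52883 at E16), radial glia (3405 to 5000 and 2408 to 5228) and IPs (27740 to 37408 and 16780 to 42587), with 9, 7 to 8 and 6 genes detected on each array. Single markers did differ between stages: 2 of 6 tested radial glia markers were called higher in limma's test (Ptprz1, log2 difference 2.04; Slc1a3, 1.58) and 2 lower (Vim, -1.77; Nes, -0.71). Of 6 tested IP markers 1 was called higher (Sstr2, 1.08) and 1 lower (Neurog1, -1.17), with a median log2 difference of -0.36. At an unadjusted p under 0.05 in limma's test, 1 IP marker was higher and 3 were lower. Of 9 neuron markers 2 were called higher (Mef2c, 1.498, and Neurod6, 0.98) and 0 lower (4 and 1 at that unadjusted p). Counts at that p follow a looser cut than the calls, and its share over all tested probes is not given here. Divided by each array's median signal, IP sums had medians of 114 (E13) and 93.0 (E16), and neuron sums 146 and 159. The part of cell makeup in the stage differences described here was not tested. E13 array 64 stood apart: its summed erythroid signal was 25272, with 228 to 611 elsewhere at E13, its interneuron signal 3467 against 259 to 628, and its endothelial and pericyte signal 502 against 64.6 to 102. E16 array 97 had an erythroid signal of 7847 against 740 to 1869 on the other E16 arrays. Microglia and other immune markers summed to 196 on array 64 and to 45.8 to 88.9 elsewhere. Of these genes Ptprc and Itgam were detected on 0 arrays, Aif1 on 9 and Csf1r on 8 by the probe detected most often. In such bulk samples, fewer cells of a type and less RNA per cell cannot be told apart.

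Bcl6 was measured by 1 probe, ILMN_1230353, detected on all 11 arrays. Its normalized signal at E13 was 47.3 on array 37, 114.6 on array 40, 48.5 on array 61, 43.3 on array 64 and 34.4 on array 65. At E16 it ran from 482.9 on array 95 to 1460 on array 80, with a median of 603. Every E16 array stood above every E13 array, as it did for 5.38% of tested probes, and the lowest E16 value was 4.21 times the highest E13 value.

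The Bcl6 mean was 57.6 ± 32.3 at E13 (SD, n = 5) and 757 ± 367 at E16 (SD, n = 6). The log2 difference was 3.74 (SE 0.32), or 13.4-fold, and it held place 2 from the top among the 16411 tested probes. Beside it, the median size of a difference over all tested probes was 0.22 on the log2 scale. These values chose the gene, so its place in the ranking supports nothing further. The E13 signal of Bcl6 was low, 34.4 to 48.5 on every array but array 40, which limits how well the size of the fold is known.

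Bcl6 also varied widely within each stage. Its highest E13 array stood 3.33-fold over its lowest, and its highest E16 array 3.02-fold over its lowest. Array 40 lay 2.67-fold above the other E13 arrays and array 80 lay 2.42-fold above the other E16 arrays. Without both arrays the log2 difference was 3.81 (SE 0.19), and over 21 other settings it ran from 3.39 to 4.02. Beside this, the summed cortical neuron signal divided by the array's median signal was 171 on array 40, with 124 to 171 over the E13 arrays. It was also 171 on E13 array 61, where Bcl6 was 48.5. On array 80 it was 176, with 110 to 176 over the E16 arrays. The same ratio for IP markers was 114 on array 40, with 98.9 to 127 at E13, and 68.2 on array 80, the lowest of 68.2 to 108 at E16. The part of cell makeup in the Bcl6 values was not tested. On arrays 64 and 97, which had the highest erythroid sums, Bcl6 was 43.3 and 540.7, inside the range of the other arrays of each stage. The range from the lowest E13 to the highest E16 array was 42.5-fold.

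**Figure D1:**
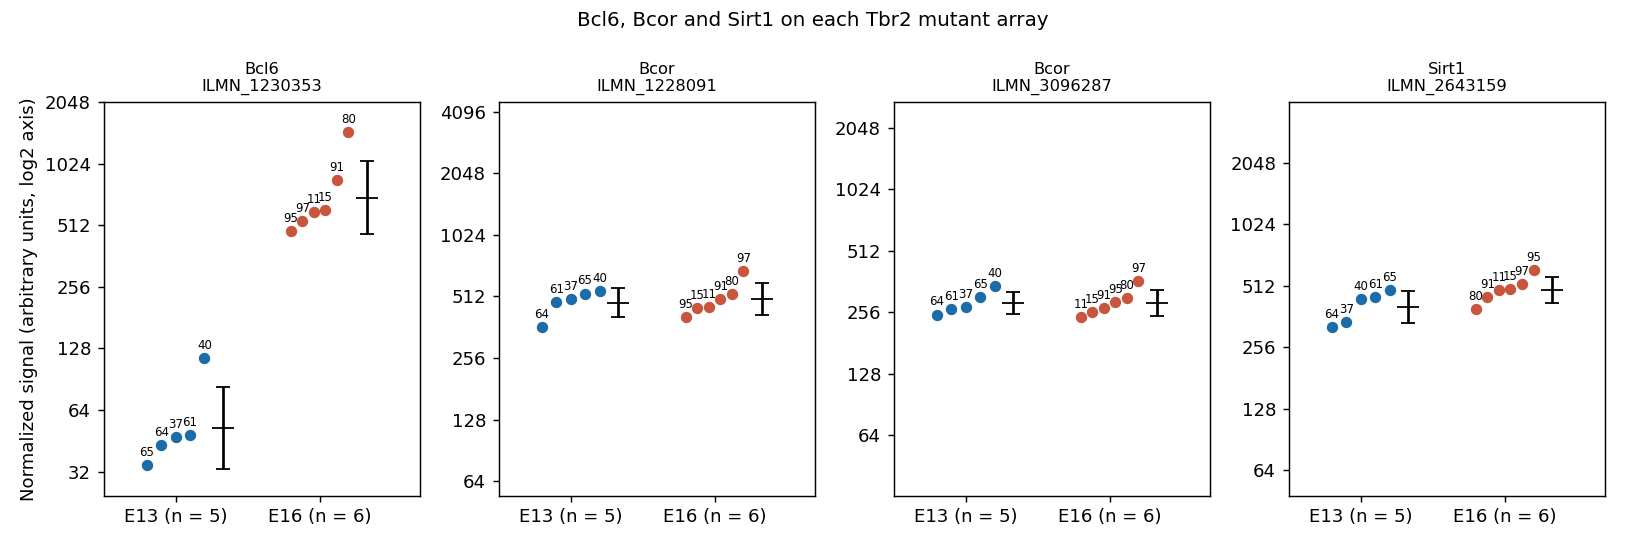
Normalized signal (arbitrary units, log2 axis) of the 4 tested probes of Bcl6, Bcor and Sirt1, 1 point an array with its number, E13 in blue (n = 5) and E16 in red (n = 6), and the black bar giving the mean ± SD of the log2 values; panels span the same number of doublings, and heights of different probes are not comparable. Bcl6 spans 34.4 to 114.6 (E13) and 482.9 to 1460 (E16), while both Bcor probes and Sirt1 overlap between stages.

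Bcor carries 3 probes, of which 2 were detected on all arrays. The third, ILMN_1254808, was detected on 0 of 11 arrays, with background-subtracted signals of -13.4 to -2.82 (E13) and -5.99 to 1.40 (E16). ILMN_1228091 read 495.8 on E13 array 37, 542.7 on array 40, 480.1 on array 61, 364.0 on array 64 and 529.3 on array 65. At E16 it ran from 406.3 on array 95 to 684.3 on array 97, with a median of 475. The stages overlapped, with all but 1 of the E13 arrays inside the E16 range.

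The Bcor means on ILMN_1228091 were 482 ± 70.8 at E13 (SD, n = 5) and 503 ± 98.1 at E16 (SD, n = 6), a log2 difference of 0.05 (SE 0.15). ILMN_3096287 read 272.2 on E13 array 37, 343.1 on array 40, 266.4 on array 61, 250.1 on array 64 and 303.4 on array 65, and 243.9 to 365.6 at E16 with a median of 279. Its means were 287 ± 36.8 and 287 ± 43.3, and its log2 difference was 0.00 (SE 0.13). Other settings moved the differences between -0.04 and 0.11 for ILMN_1228091 and between -0.08 and 0.06 for ILMN_3096287, so that neither probe showed a stage difference larger than its own error.

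The 2 Bcor probes ranked the arrays alike, with a Pearson r of 0.80 and a Spearman rho of 0.82 over the 11 arrays, and r of 0.81 after each stage was centred on its mean. Array 64 was the lowest E13 array and array 97 the highest E16 array on both, and these are the arrays with the highest erythroid sums of their stages. The part of those cells in the Bcor values was not tested. Bcor lies on the X chromosome. Xist, the RNA of the inactive X, was detected on 2 E13 arrays and 5 E16 arrays by at least 3 of its probes. On ILMN_1228091 the E13 arrays with Xist held 364.0 and 542.7, on either side of the 480.1 to 529.3 of those without.

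Sirt1 was measured by 1 probe, ILMN_2643159, detected on all 11 arrays. It read 340.3 on E13 array 37, 439.2 on array 40, 450.8 on array 61, 321.5 on array 64 and 486.3 on array 65. At E16 it ran from 392.2 on array 80 to 608.2 on array 95, with a median of 490. The stages overlapped, and the lowest E16 array lay below 3 of the 5 E13 arrays.

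The Sirt1 mean was 408 ± 72.5 at E13 (SD, n = 5) and 492 ± 72.0 at E16 (SD, n = 6). The log2 difference was 0.28 (SE 0.14), or 1.21-fold, and ran from 0.17 to 0.37 over the other settings. It was higher than that of 78.5% of tested probes, against 55.6% and 48.6% for the Bcor probes. The array with the most Bcl6 at E16, array 80, had the least Sirt1 of that stage. Over the 11 arrays, which share the stage difference, Bcl6 and Sirt1 had r = 0.43 (rho 0.24), and after each stage was centred r = -0.37. Bcl6 and the Bcor probes had r = 0.19 and 0.08 (rho 0.08 and -0.06), and after each stage was centred r = 0.25 and 0.29. These weak correlations describe 11 arrays and no more.

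**Figure D2:**
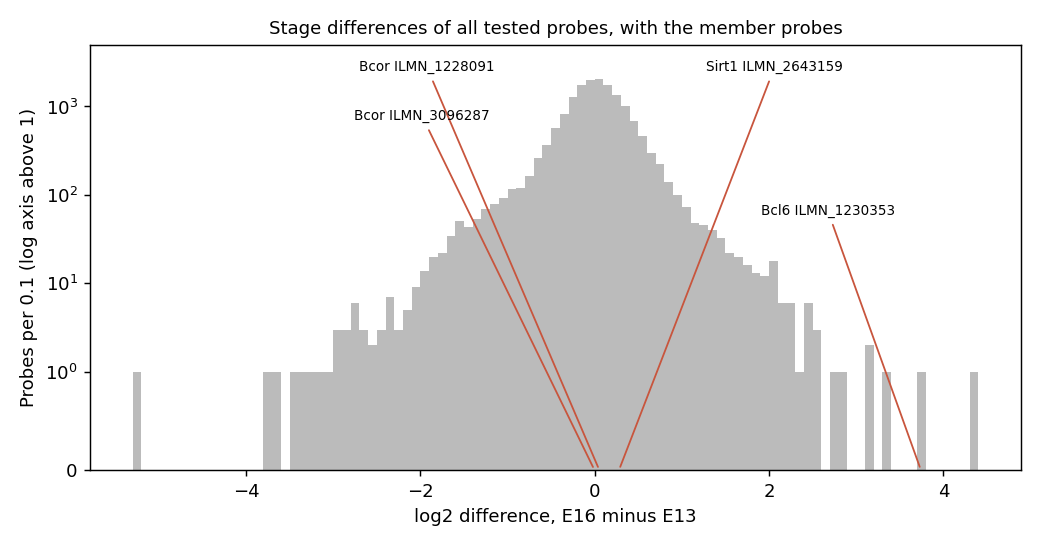
Log2 differences of E16 minus E13 (horizontal axis) of the 16411 tested probes, as the number of probes per 0.1 (vertical axis, logarithmic above 1), with lines to the 4 member probes. Bcl6 lies at 3.74, at the right end, while Sirt1 at 0.28 and the Bcor probes at 0.05 and 0.00 lie in the body of the distribution.

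Genes that work with BCL6 were read from 10 lists of 121 genes, of which 79 had a tested probe, each gene by its brightest one. The lists were made with earlier results of these arrays known. Over all lists 9 genes were called higher and 9 lower at E16, 22.8% of those tested beside 11.3% of all tested probes, with a median log2 difference of 0.00. The lists fall into partners of the repressor, pathways in which it is known to silence genes, and genes related to it or acting on it. The shares to set beside the count of each list are 5.17% higher and 6.09% lower. These shares are over all tested probes, while the lists count each gene once. They belong to the calls and not to the counts at an unadjusted p under 0.05 given below. At an adjusted p under 0.05 in limma's test, without the fold threshold, 1399 of the 16411 probes were higher and 1544 lower. The unadjusted p is a looser cut still, and its share over all tested probes is not given here. The corepressor partners and the sirtuins other than SIRT1, each at 16.7% called, lay near the 11.3%, and each list holds few tested genes.

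Of 12 tested corepressor partners other than BCOR and SIRT1, 2 were called higher and 0 lower (4 and 2 at an unadjusted p under 0.05 in limma's test), with a median of -0.01 beside 0.01 over all probes. Hdac9 and Hdac7 encode class IIa histone deacetylases, as do Hdac4 (log2 difference 0.41, limma adjusted p = 0.0804) and Hdac5 (0.00, limma adjusted p = 0.989) of the same list, which were not called and are named here after their values were seen. Hdac9 rose from 50.07 to 85.83 at E13 to 95.03 to 321 at E16, a log2 difference of 1.54 (SE 0.26, limma adjusted p = 0.00111), and did not overlap between stages. Hdac7 rose by 0.62 (SE 0.15, limma adjusted p = 0.0112), with overlapping stages, and that call was lost without array 37, 61 or 95, where the difference of 0.54 to 0.58 lay just under 1.5-fold (adjusted p = 0.0214 to 0.0329), and with a term for Xist (0.55, adjusted p = 0.0507). Ncor1, which encodes a corepressor bound at the same BTB surface as BCOR, had no probe named in the annotation used.

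All 9 genes of the BCOR complex had a tested probe and 0 were called in limma's test, with 0 also at an unadjusted p under 0.05, each gene by its brightest probe. A dimmer probe of Usp7, the gene of a deubiquitinase of the complex, had a log2 difference of 0.52 (limma adjusted p = 0.0129), under the fold needed, and its brightest had 0.22 (adjusted p = 0.221). By brightest probes, their median was 0.01. Bcorl1, the paralogue of Bcor, read 97.88 to 134.2 at E13 and 98.27 to 147.6 at E16, with a log2 difference of -0.04 (SE 0.15, limma adjusted p = 0.876), and its sign turned without array 61 or array 91 (0.00 in each case).

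The Notch list holds ligands, receptors, cofactors and targets of the pathway and is not a list of BCL6 targets. Of its 9 tested genes 3 were called lower and 0 higher (4 and 0 at an unadjusted p under 0.05 in limma's test), with a median of -0.38. Dll1, a Notch ligand, fell from between 638.6 and 813.7 at E13 to between 187.5 and 416 at E16 (log2 difference -1.24, SE 0.18, limma adjusted p = 0.000319). Dll3, a divergent ligand, had a log2 difference of -1.64 (SE 0.28, limma adjusted p = 0.00114), and Hey1, an effector of Notch, of -1.27 (SE 0.18, limma adjusted p = 0.000312). None of the 3 overlapped between stages, as 6.34% of all tested probes did not in that direction.

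Hes5, the Notch effector best known as a BCL6 target in cortex, was not among the genes called. Its probe ILMN_1253414 read 112.2 on E13 array 37, 74.0 on array 40, 44.1 on array 61, 390.0 on array 64 and 40.8 on array 65, and 59.96 to 80.2 at E16. The E16 values lay inside the E13 range, and array 64, with the highest erythroid, interneuron and endothelial sums, held by far the highest Hes5 signal. The log2 difference was -0.38 (SE 0.45, limma adjusted p = 0.609), and without array 64 it was 0.15.

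A second Hes5 probe, ILMN_2624153, was detected on 10 of the arrays, with a background-subtracted signal of 267.8 on array 64 and 16.3 to 64.4 on the other E13 arrays. At E16 it read 24.6 to 60.5. Hes1, another Notch effector, was detected on 5 of 5 E13 arrays and 3 of 6 E16 arrays. Its background-subtracted signal was 111.0 on array 64, 25.7 to 35.4 on the other E13 arrays and 9.87 to 41.1 at E16, so that both Hes genes were highest on array 64. No window match to TTCNNNGAA was found for Hes5.

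Self-renewal genes of the SHH, WNT, FGF and cyclin D pathways were called in both directions. Of 13 tested genes 2 were called higher and 3 lower (4 and 4 at an unadjusted p under 0.05 in limma's test), with a median of 0.00. Tcf7l1, a transcriptional effector of WNT signaling, fell from between 530.2 and 1098 to between 77.95 and 200.4 (log2 difference -2.48, SE 0.25, limma adjusted p = 2.0e-05). Gli3, a transcription factor of SHH signaling, fell by 0.82 on the log2 scale (SE 0.15, limma adjusted p = 0.00208). Ccnd1, cyclin D1, fell by 1.15 (SE 0.31, limma adjusted p = 0.0188), with overlapping stages, and its call was lost without array 37, with no detection filter and with a term for Xist (adjusted p up to 0.127). The FGF receptor genes Fgfr1 (1.62, SE 0.24, limma adjusted p = 0.000351) and Fgfr2 (0.98, SE 0.18, limma adjusted p = 0.00163) rose.

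Of the genes known as BCL6 targets in B cells, 5 of 12 were tested, with a median of -0.58. Of these 1 was called higher and 2 lower (1 and 3 at an unadjusted p under 0.05 in limma's test). Cdkn1a, which encodes the cell cycle inhibitor p21, fell from between 1064 and 1659 to between 88.0 and 248.8, a log2 difference of -3.26 (SE 0.23, limma adjusted p = 2.1e-06). Gadd45a, a growth arrest gene induced by DNA damage, fell from between 830.3 and 1838 to between 316.8 and 546.2 (-1.55, SE 0.19, limma adjusted p = 9.5e-05). Id2, an inhibitor of bHLH factors, rose by 0.70 (SE 0.19, limma adjusted p = 0.0205), and lost its call without array 40 (0.54, under 1.5-fold) and with no detection filter. Across all lists, 7 of the 9 lower genes had promoter windows, 10 in all, and 0 of these held a match to either motif. Of the 15 windows of 7 higher genes 3 held TTCNNNGAA, 2 of them of Hdac7 and 1 of Zbtb20. Beside the 8.3% of all windows that hold TTCNNNGAA, these windows are too few to show a difference.

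**Figure D3:**
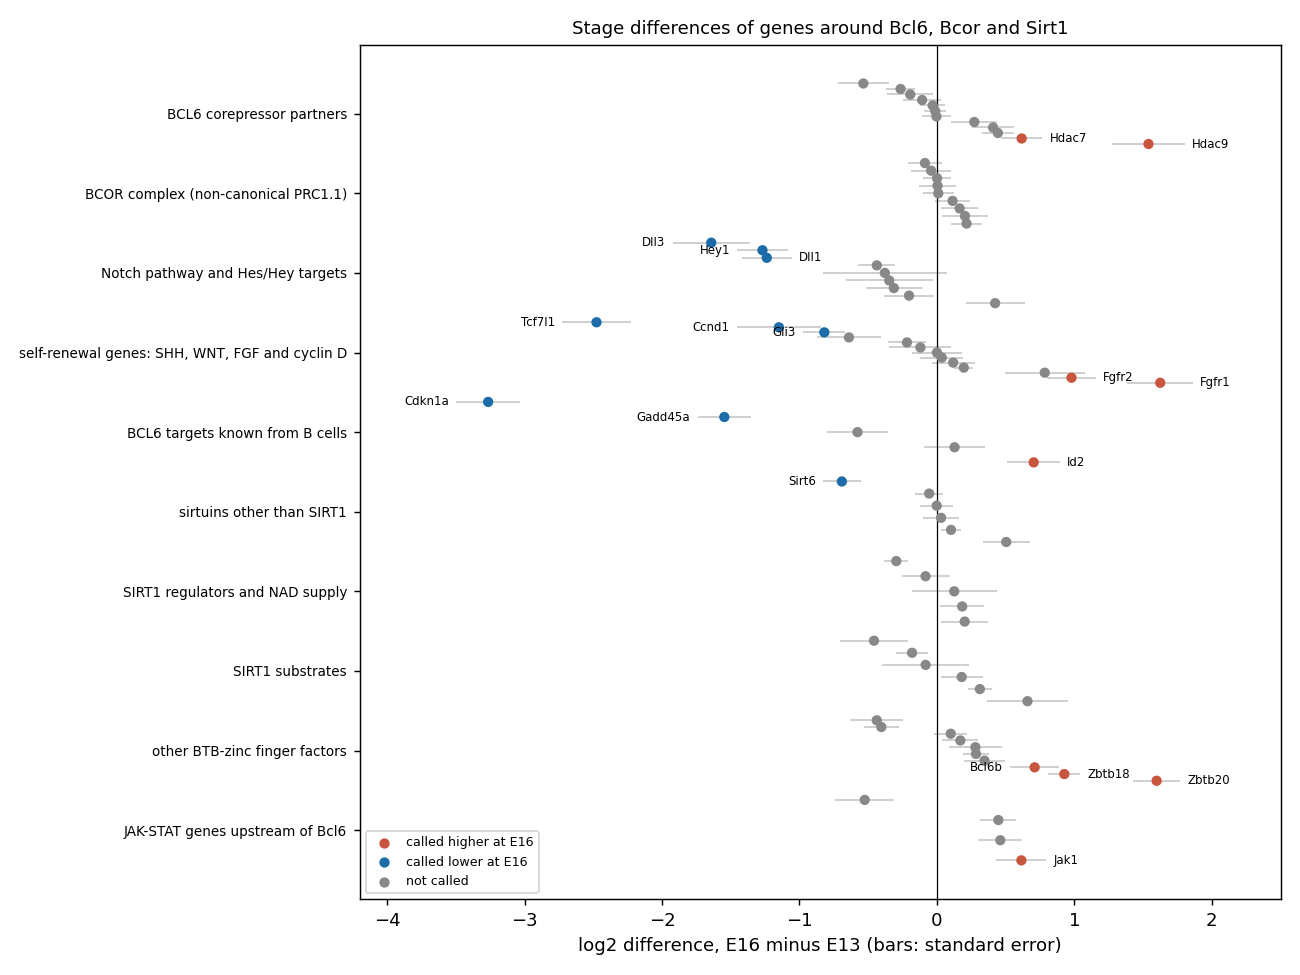
Log2 differences, E16 minus E13 (horizontal axis), of the 79 tested genes in 10 lists (rows), each gene by its brightest probe, with bars for the standard error, red points called higher and blue points called lower at E16, and grey points not called. Cdkn1a at -3.26 and Tcf7l1 at -2.48 lie farthest to the left and Fgfr1 at 1.62 and Zbtb20 at 1.60 farthest to the right, while all 9 genes of the BCOR complex lie near 0.

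Of the 6 other sirtuins, all tested, Sirt6, a nuclear deacetylase of chromatin, fell by 0.69 (SE 0.14, limma adjusted p = 0.00306), and 0 were called higher (1 at an unadjusted p under 0.05). Its arrays held 270.4 to 290.5 at E13 and 138.9 to 229.8 at E16. Of SIRT1 regulators and NAD supply genes 5 of 10 were tested, and of SIRT1 substrates 6 of 7, and 0 of either list were called in limma's test (1 and 2 at an unadjusted p under 0.05), with medians of 0.13 and 0.05. Ccar2, an inhibitor of SIRT1, was detected on 1 of 5 E13 arrays and 4 of 6 E16 arrays. Its background-subtracted signals were 8.22 to 18.2 at E13, and at E16 2.45 and 5.73 on arrays 11 and 15 and 26.9 to 102.9 on the other arrays.

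Of 10 tested BTB-zinc finger factors related to BCL6, 3 were called higher and 0 lower (5 and 2 at an unadjusted p under 0.05 in limma's test), with a median of 0.28. Zbtb18, a repressor needed for cortical neuron differentiation, rose from between 4486 and 7290 to between 8989 and 11942 (log2 difference 0.93, SE 0.12, limma adjusted p = 9.7e-05). Zbtb20, a factor of hippocampal and later-born cortical neurons, rose from between 702 and 1143 to between 1866 and 3712 (1.60, SE 0.17, limma adjusted p = 2.7e-05). Bcl6b, the closest paralogue of Bcl6, read 19.1 to 29.8 at E13 and 30.5 to 47.0 at E16, a log2 difference of 0.71 (SE 0.18, limma adjusted p = 0.0135), and that call was lost without arrays 40 and 80 (adjusted p = 0.0706), with no detection filter (adjusted p = 0.0568) and with neqc background correction, where the change stayed under 1.5-fold. Of JAK-STAT genes, which act upstream of Bcl6 in lymphocytes, 1 of 4 tested was called, Jak1, at 0.61 (SE 0.18, limma adjusted p = 0.0305), and its call was lost in 13 of 22 other settings (adjusted p up to 0.0909). At an unadjusted p under 0.05 in limma's test, 3 of these JAK-STAT genes were higher and 1 was lower.

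Several probes of a gene did not always give the same call. Of 33 listed genes with more than 1 tested probe, 9 had probes on both sides of the call. Among the genes named, 4 of 5 Zbtb18 probes were called higher, 2 of 3 Id2 probes higher, 2 of 3 Ccnd1 probes and 2 of 3 Sirt6 probes lower, and 1 of 2 Jak1 probes higher, with a log2 difference of 0.13 on the other. Further genes were not called by their brightest probe but had a dimmer probe called. Lower were 2 of 3 Hes6 probes, 2 of 3 Bcl2 probes and 1 of 3 Stat3 probes (log2 difference -1.34). Higher was 1 of 2 Hdac2 probes (0.91). Their status as not called therefore depends on the choice of probe.

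Tested probes with a single symbol were compared with Bcl6, without the members and clone-type names such as Rik, LOC and Gm, which left 13673. Genes whose levels followed those of Bcl6 most closely were sought among these probes, by Pearson's r of log2 values over the 11 arrays. The highest were Rbfox1, a neuronal splicing regulator (r = 0.99), Matk, a tyrosine kinase (0.99), Mmp17, a membrane-bound metalloproteinase (0.99), Oma1, a mitochondrial protease (0.99), and Mpped1 (0.98). The lowest were Cxxc4, an inhibitor of WNT signaling (-0.99), Nrm, an inner nuclear membrane protein (-0.98), the imprinted gene Dlk1 (-0.98), the neurotrophin receptor gene Ntrk2 (-0.98) and Incenp, a chromosomal passenger protein of mitosis (-0.98). In all, 204 probes had r over 0.9 and 317 had r under -0.9. These 11 points share the stage difference, which the named genes also show, and the values are a description with no test.

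With each stage centred on its own mean, the order changed. The 5 highest probes were those of Prex1, a Rac exchange factor (0.97), Cxcl12, a chemokine, on both of its probes (0.96 and 0.96), St8sia5, a sialyltransferase (0.96), and Pam, a peptide-amidating enzyme (0.95). Arrays 40 and 80, which lay 1.41 and 1.27 above the other arrays of their stages in log2 Bcl6 signal, were the points farthest from 0 after centring. Among listed genes Zbtb18 had r = 0.96 with Bcl6, and 0.71 after centring. Tcf7l1 and Gadd45a had r = -0.97 each, and -0.71 and -0.77 after centring. These genes were not typical: of the 18 called genes 11 changed sign after centring, among them Zbtb20 (0.82 to -0.75), Hdac9 (0.75 to -0.58), Fgfr1 (0.81 to -0.47), Sirt6 (-0.80 to 0.46) and Dll3 (-0.78 to 0.34). Hes5 had r = -0.24 and, after centring, -0.07.

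**Figure D4:**
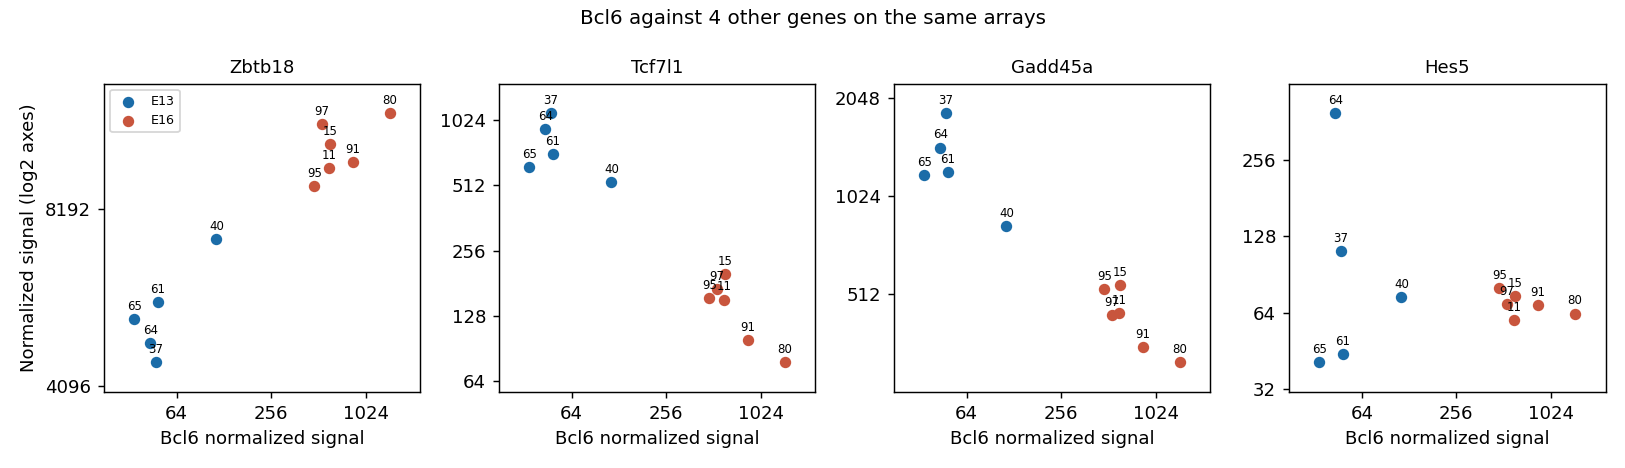
Normalized signal of Bcl6 (horizontal axis) against that of Zbtb18, Tcf7l1, Gadd45a and Hes5 (vertical axes) on the same 11 arrays, both axes in arbitrary units on a log2 scale, E13 in blue and E16 in red with array numbers; Tcf7l1 and Gadd45a were chosen after their values were seen. E13 array 40, with the most Bcl6 of its stage, has the highest Zbtb18 and the lowest Tcf7l1 and Gadd45a of the E13 arrays, and Hes5 is highest on array 64.

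For Bcor, the closest probes to ILMN_1228091 were those of Zc4h2, a zinc finger gene (r = 0.92), Yme1l1, a mitochondrial protease (0.90), Ppp1cb, a phosphatase catalytic subunit (0.90), and Slc38a1, an amino acid transporter, on both of its probes (0.90 and 0.89). For Sirt1 they were Fnip1, a folliculin partner (0.97), Dmxl1 (0.94), Ankhd1 (0.93), Tgs1, an RNA cap methyltransferase (0.93), and Zfp606 (0.93). For both genes r after centring stayed within 0.89 and 0.95 for these probes.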

How the data were processed

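The members and gene lists were chosen with earlier results of these data known. The authors deposited background-subtracted signal intensity per probe, not normalized across arrays, together with a detection p-value per probe deposited for each array. The authors also deposited log2 values of 15825 probes, quantile-normalized with outlier probes removed; that removal was not repeated. The sources used here do not name the scanner software. A further table held 11 signal and 11 detection p-value columns of control arrays, which were not used.

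The platform annotation gave 34885 of 45281 probes 1 symbol. The 16411 probes whose detection p was below 0.05 on every array were quantile-normalized, and a stage term was fitted to their log2 values with limma 3.58.1 (R 4.3.3; moderated variances with an intensity trend; Benjamini-Hochberg adjustment). The fit was also run on simulated data with independent noise for each probe and array. That run did not cover shared litters or differences in cell makeup. A call needed an adjusted p below 0.05 and more than 1.5-fold change. A positive log2 difference means higher at E16. Normalized signals are in arbitrary units and depend on each probe, so no probe's level was set against another's. The number of arrays limits the precision. Genes named were all probes of the members, Hes5, Hes1, Ncor1, Bcorl1, Bcl6b, Ccar2 and Zbtb18 whatever their values (a further gene of this rule is not reported here), up to 3 called genes per list and direction, the 5 probes most like each member, and for Bcl6 also the 5 least like it and the 5 most like it after centring. Alternatives were median scaling, neqc background correction, other detection filters, the authors' table with and without a replicate block, no fold threshold, array weights, a term for Xist, and leaving out arrays. The labels' replicate numbers are not paired with array numbers, and in the authors' table the deviations of same-numbered E13 and E16 samples correlated at -0.25 to 0.17, so the numbers were not taken as pairs. Replicates are labelled as separate samples, and p-values measure the spread between these samples, not between litters.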

Additional observations from a re-analysis of the deposited data

Results flagged for a closer look

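A single array lay far from the others of its stage for 4 of 48 probe and stage groups examined, where chance would give about 2.4. On E13 array 40 Bcl6 read 114.6, while the remaining E13 arrays held 34.4 to 48.5. Among genes of the lists, Hdac9 read 95.03 on E16 array 80, while the remaining E16 arrays held 207 to 321. The Fgfr2 signal of E16 array 91 was 612 against 993 to 1155, and the Jak1 signal of E16 array 11 was 80.2 against 125 to 141.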

How the results depend on the processing

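Under all alternatives tried the Bcl6 difference kept its direction (3.39 with neqc to 4.02 without array 40), and those of both Bcor probes and Sirt1 moved by less than the spread between replicates. Without the fold threshold 1399 probes were higher and 1544 lower. With it, counts of probes stayed within 667 to 1131 higher and 823 to 1339 lower. Leaving out each array in turn gave 667 to 868 probes higher and 839 to 1021 lower, and 7 to 12 pathway genes higher and 8 to 11 lower. Without array 64 the counts of pathway genes were 9 and 9, and without arrays 40 and 80 they were 7 and 11. The sign turned for Hes5 with array weights (0.067) and without array 64 (0.15; -0.66 to 0.15 over single arrays left out), and for Bcorl1 without array 61 (0.0032) and without array 91 (0.0029; -0.11 to 0.0032 over single arrays left out); the cause was not tested. In the authors' table with a replicate block, the Bcl6 difference was 3.81, and 8 pathway genes were higher and 9 lower. The block ended the call of Jak1 (adjusted p = 0.0522) and of no other named gene. Probes near background limit what can be read for Hes1, Ccar2, Bcl6b and the undetected Bcor probe. Signals were also low for Bcl6 at E13 (34.4 to 114.6), Fgfr1 at E13 (22.5 to 53.6) and Dll3 at E16 (22.2 to 77.3). This limits how well the sizes of their differences are known.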
